A study of Mus musculus with 3 samples.

Results

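Ly6 genes encode small surface proteins that share a disulphide-bonded fold and are held in the membrane by a glycosylphosphatidylinositol (GPI) anchor. Several of them are the antigens by which mouse leukocytes are sorted. Ly6C marks inflammatory monocytes, Ly6G marks neutrophils, and the Gr-1 antibody binds Ly6G and, to a lesser degree, Ly6C. Sca-1, the product of Ly6a, marks blood stem cells and is induced by interferon in many cell types, and Ly6d marks lymphoid progenitors that are committed to the B lineage.

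The members described here were given by symbol: Ly6a, Ly6c1, Ly6c2, Ly6d, Ly6e, Ly6g and Ly6i. Of these 7, 6 were matched among 24346 gene symbols, and Ly6g was not analysed here. They were measured by RNA sequencing in 3 sorted colonic populations, each represented by a single library from healthy mice of the BALB/c strain: Gr-1+ CD11b+ cells, which the labels also call neutrophils and monocytes, CD64- dendritic cells (DC) and CD64+ macrophages. CD11b is encoded by Itgam and CD64 by Fcgr1. The mice carried no transgene or deletion that the labels name, their age was not given, and whether cells of several mice were pooled was not stated. BALB/c mice carry a Ly6 haplotype with which fewer lymphocytes display Sca-1 than in C57BL/6 mice, the strain of the reference genome.

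Levels are FPKM, the fragments per kilobase of transcript normalised to the mapped fragments of a library, as the authors deposited them. Differences were taken between values of log2(FPKM + 1), and this scale understates them where values are low. Since each population has a single library, the differences lack a replicate check and were not tested. A gene was called higher or lower in a library by a size rule, a difference of 2 or more on that scale with at least 10 FPKM in the library with the higher value, among the 17329 genes that reached 1 FPKM in at least 1 library. In sorted bulk samples, fewer cells of a type and less RNA per cell cannot be told apart.

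The genes of the 6 members lie in one cluster on mouse chromosome 15 (GRCm38), each annotated as protein-coding. Ly6d spans positions 74762056 to 74763620 on the minus strand, Ly6e 74955051 to 74959905 on the plus strand and Ly6i 74979534 to 74983430 on the minus strand. Ly6a spans 74994877 to 74998031, Ly6c1 75044018 to 75048830 and Ly6c2 75108158 to 75111970, all on the minus strand. Ly6c1 and Ly6c2 are near-identical copies. Their coding sequences were identical at 97.7% of alignment columns, against 81.8% for Ly6a and Ly6c1, 86.3% for Ly6a and Ly6i and 52.4% for Ly6d and Ly6e. Of all stretches of 50 nt in the lowest-numbered GENCODE transcript of Ly6c1, 36.7% also occurred in another gene, chiefly Ly6c2 (31.7%), and for that of Ly6c2 the share was 33.0%. It was 8.05% for Ly6a and 4.97% for Ly6i, and no such stretch of Ly6d or Ly6e occurred in another gene. How the fragments of shared stretches were divided between Ly6c1 and Ly6c2 is not given in the sources used here, so their separate values are uncertain and their sum is given as well.

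The promoters of these near-identical genes are shown because the transcripts differed in level and in their distribution over the libraries. RefSeq sequences (GRCm38.p6) were matched for 2 of the 6 members. Each runs from 250 bases before to 50 bases after the annotated start, on the minus strand, at chr15:75048788-75049087 for Ly6c1 and chr15:75111922-75112221 for Ly6c2. Capitals mark bases with no identical partner in a pairwise alignment, in which 208 of 266 aligned bases (78.2%) were identical.
Ly6c1 promoter: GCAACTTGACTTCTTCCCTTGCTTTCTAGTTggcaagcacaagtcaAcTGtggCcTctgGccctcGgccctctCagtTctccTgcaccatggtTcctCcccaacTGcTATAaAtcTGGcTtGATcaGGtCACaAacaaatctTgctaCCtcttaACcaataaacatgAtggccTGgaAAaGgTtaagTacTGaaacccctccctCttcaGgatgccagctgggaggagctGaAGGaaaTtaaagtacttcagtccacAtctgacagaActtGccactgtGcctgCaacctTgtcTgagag
Ly6c2 promoter: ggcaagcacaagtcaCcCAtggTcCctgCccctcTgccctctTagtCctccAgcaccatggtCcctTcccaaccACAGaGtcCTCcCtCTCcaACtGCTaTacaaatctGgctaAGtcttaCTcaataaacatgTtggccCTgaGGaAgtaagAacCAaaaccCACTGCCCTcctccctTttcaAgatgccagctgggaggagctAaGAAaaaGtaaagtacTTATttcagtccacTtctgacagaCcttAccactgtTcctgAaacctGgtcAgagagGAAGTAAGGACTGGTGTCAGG
The interferon-related motifs TTCNNNGAA (GAS) and the core of ISRE, which is GAAA, any 2 bases and GAAA again, were searched on both strands. Neither promoter held either one, where 8.30% and 3.44% of 32851 promoters of the same length did. This says only that these letters are not in this window.

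The libraries differed in depth, in background and in the share taken by their most abundant transcripts. Steps in the values of genes with a single transcript of 800 to 1200 nt gave the DC library 3.62 times and the macrophage library 2.72 times the fragments of the Gr-1+ CD11b+ library. The 95th percentile over 1426 olfactory and vomeronasal receptor genes, called the silent-gene level here, was 9.65 FPKM in the Gr-1+ CD11b+ cells, 0.610 in the DC and 3.22 in the macrophages. All 6 members exceeded it in every library. The sort markers followed the gates, with Itgam at 172, 18.7 and 114 FPKM and Fcgr1 at 12.3, 9.23 and 113 FPKM in the Gr-1+ CD11b+ cells, DC and macrophages. Neutrophil markers set the Gr-1+ CD11b+ library apart, with 15 genes summing to 181530 FPKM there, 1820 in the DC and 4831 in the macrophages. The 10 conventional DC markers summed to 87.9 FPKM in the Gr-1+ CD11b+ cells, 1512 in the DC and 423 in the macrophages, with none listed at 0. Of the DC sum, Ccr7 alone made up 1004 FPKM. The DC library was also highest in B cell markers, with 3315 FPKM against 81.9 in the Gr-1+ CD11b+ cells and 155 in the macrophages. Its plasma cell markers reached 21231 FPKM, against 627 and 1350. What share of each member's DC value came from such cells was not tested. Among genes with 10 FPKM or more in either library, the median difference was -0.94 for Gr-1+ CD11b+ cells minus DC, -0.81 for Gr-1+ CD11b+ cells minus macrophages and 0.17 for DC minus macrophages, the values to set the members' differences beside.

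**Figure D1:**
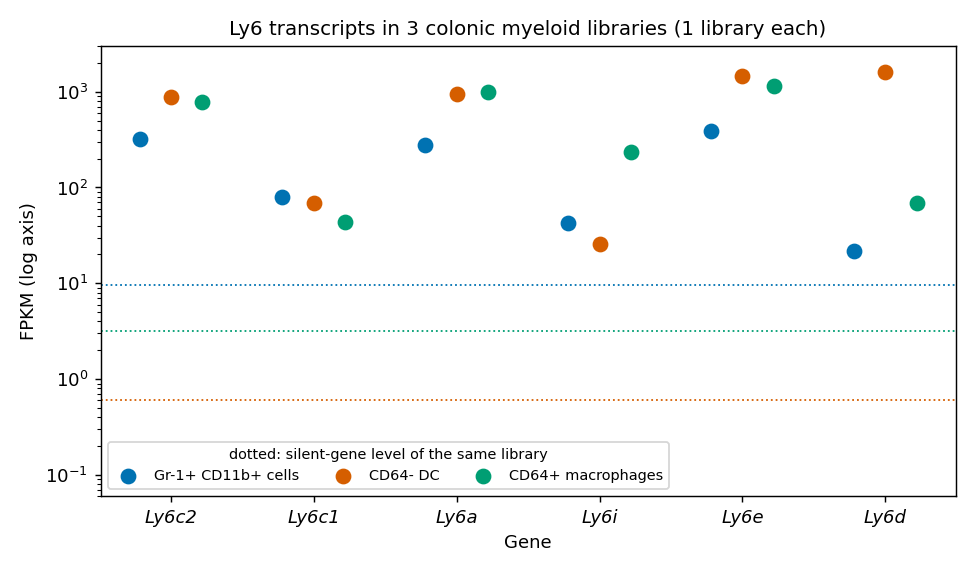
FPKM on a log axis of the 6 Ly6 genes, with 1 point per library for Gr-1+ CD11b+ cells, DC and macrophages, and dotted lines at the silent-gene level of each library (9.65, 0.610 and 3.22 FPKM). Ly6d stands out in the DC at 1604 FPKM and Ly6i in the macrophages at 233 FPKM, whereas Ly6c2, Ly6a and Ly6e are lowest in the Gr-1+ CD11b+ cells.

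The products of the Ly6C genes are part of what the Gr-1 antibody binds. Transcripts of Ly6c2, which encodes the Ly6C protein known from monocytes, were not highest in the cells sorted for Gr-1. Ly6c2 was at 320 FPKM in the Gr-1+ CD11b+ cells, 878 in the DC and 782 in the macrophages. The Gr-1+ CD11b+ value was thus 0.364 times that of DC and 0.409 times that of macrophages, with differences of -1.45 and -1.29 that did not reach the size rule. These differences kept their sign under the deposited and 3 other scalings of the libraries (equal FPKM sums, median ratios and equal 75th percentiles), with -1.83 to -0.68 against DC and -1.29 to -0.69 against macrophages. DC and macrophages differed by 0.17 in Ly6c2 as deposited and by -0.03 with median-ratio scaling, so no order between them is read.

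Ly6c1, which encodes the other Ly6C protein and is also used by endothelial cells, had another distribution. It was at 79.9 FPKM in the Gr-1+ CD11b+ cells, 68.8 in the DC and 44.0 in the macrophages. Counting error alone, from about 133, 413 and 198 fragments, gave exact Poisson 95% intervals of 66.9 to 94.7, 62.3 to 75.7 and 38.0 to 50.5 FPKM. The first 2 intervals overlap, and the macrophage value lies below both. The differences were 0.21 for Gr-1+ CD11b+ cells minus DC, which turned to -0.15 when the libraries were scaled to equal sums, 0.85 for Gr-1+ CD11b+ cells minus macrophages and 0.63 for DC minus macrophages. None reached the size rule.

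The ratio of the Ly6C genes within a library does not depend on how libraries are scaled. Ly6c1 made up 20.0% of the summed FPKM of both genes in the Gr-1+ CD11b+ cells, 7.26% in the DC and 5.32% in the macrophages. Ly6c2 was thus 4.003 times Ly6c1 in the Gr-1+ CD11b+ cells, 12.8 times in the DC and 17.8 times in the macrophages. The sum of both was 400 FPKM in the Gr-1+ CD11b+ cells, 947 in the DC and 826 in the macrophages, with differences of -1.24, -1.04 and 0.20 for Gr-1+ CD11b+ cells minus DC, Gr-1+ CD11b+ cells minus macrophages and DC minus macrophages. The sums of endothelial and of fibroblast markers were, like Ly6c1, lowest in the macrophages, but they were highest in the DC. Single endothelial markers were divided. Cdh5, Kdr, Tek, Emcn, Cldn5, Esam and Ptprb were highest in the Gr-1+ CD11b+ cells, as Ly6c1 was. Each of them lay below the silent-gene level there, 9.65 FPKM, which was the highest such level of the libraries. Pecam1, Egfl7 and Plvap were highest in the DC, Pecam1 with 32.6 FPKM against 7.49 in the Gr-1+ CD11b+ cells. For Gr-1+ CD11b+ cells minus DC, the median difference was 0.34 for the endothelial and 0.01 for the fibroblast markers. The 10 endothelial markers summed to 51.5, 71.4 and 22.5 FPKM in the Gr-1+ CD11b+ cells, DC and macrophages, and the 6 fibroblast markers to 326, 332 and 187 FPKM. None of these 16 was listed at 0, and 1, 8 and 2 of the endothelial markers exceeded the silent-gene level. Their part in the Ly6c1 values was not tested.

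**Figure D2:**
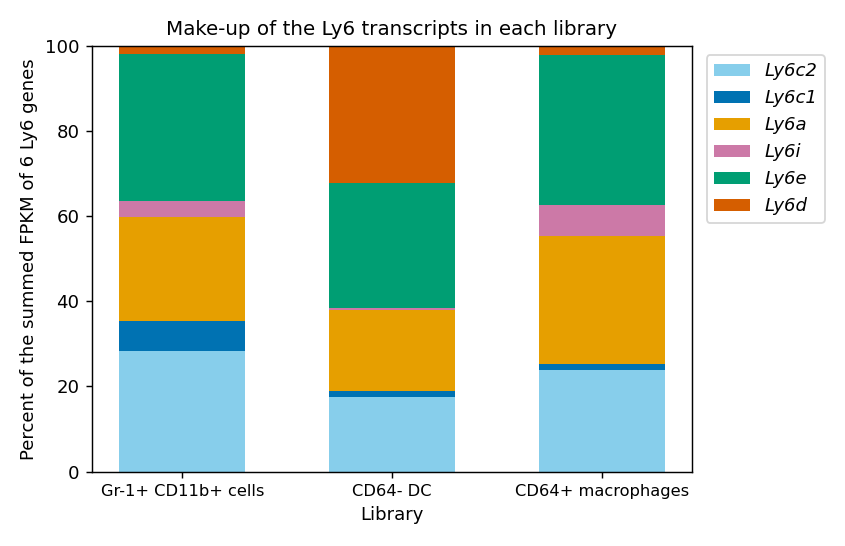
Stacked bars of each gene's percent of the summed FPKM of the 6 Ly6 genes in the Gr-1+ CD11b+ cells, DC and macrophages, 1 library each. Ly6d takes 32.2% of the sum in the DC, against 1.91% in the Gr-1+ CD11b+ cells and 2.09% in the macrophages, and Ly6c1 takes 7.08% in the Gr-1+ CD11b+ cells, 1.38% in the DC and 1.35% in the macrophages.

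Ly6a and Ly6e, both known as interferon-inducible genes, were abundant in every library and lowest in the Gr-1+ CD11b+ cells. Ly6a, the gene of Sca-1, was at 276 FPKM in the Gr-1+ CD11b+ cells, 948 in the DC and 980 in the macrophages. Its differences for Gr-1+ CD11b+ cells were -1.78 against DC and -1.82 against macrophages. DC and macrophages lay close together, with counting intervals of 923 to 973 and 951 to 1010 FPKM, and their difference of -0.05 turned to 0.34 with equal sums. Ly6e, which encodes the thymic shared antigen Sca-2, was at 389 FPKM in the Gr-1+ CD11b+ cells, 1463 in the DC and 1155 in the macrophages. It was the highest of the 6 members in the Gr-1+ CD11b+ cells and in the macrophages, and the second after Ly6d in the DC.

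The Gr-1+ CD11b+ differences of Ly6a and Ly6e fell short of the size rule as deposited, and in the comparison with DC this depended on the scaling. Ly6e differed by -1.91 against DC and -1.57 against macrophages. With equal sums, Ly6a at -2.15 and Ly6e at -2.28 were lower in the Gr-1+ CD11b+ cells than in the DC by the size rule. With equal 75th percentiles the same differences were -1.01 and -1.14, and with median ratios they were closer to 0 still. The proportions among Ly6c2, Ly6a and Ly6e moved little between the libraries. Ly6e was 1.41, 1.54 and 1.18 times Ly6a in the Gr-1+ CD11b+ cells, DC and macrophages, and Ly6c2 was 1.16, 0.926 and 0.798 times Ly6a.

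Ly6i, whose product was described on mouse monocytic cells, was the member that set macrophages apart. It was at 42.2 FPKM in the Gr-1+ CD11b+ cells, 25.7 in the DC and 233 in the macrophages. The macrophage level was 5.53 times that of Gr-1+ CD11b+ cells and 9.07 times that of DC. Ly6i was lower by the size rule in the Gr-1+ CD11b+ cells than in the macrophages, with a difference of -2.44, and in the DC than in the macrophages, with -3.13. The first call was lost with median ratios (-1.87) and with equal 75th percentiles (-1.85), and the second held under all 3 scalings. Gr-1+ CD11b+ cells and DC differed by 0.69. Relative to its neighbour Ly6a, 11.4 kb away, Ly6i was at 0.153 in the Gr-1+ CD11b+ cells, 0.0271 in the DC and 0.238 in the macrophages.

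Monocyte and macrophage markers moved with Ly6i. Of 10 macrophage markers, 8 were lower in the Gr-1+ CD11b+ cells and 9 in the DC than in the macrophages by the size rule, and they summed to 2490, 3282 and 28038 FPKM in the Gr-1+ CD11b+ cells, DC and macrophages. Of 10 monocyte markers, 4 were lower and 1 was higher in the Gr-1+ CD11b+ cells than in the macrophages, and 5 were lower in the DC than in the macrophages. They summed to 1808, 1387 and 3485 FPKM. Chil3, a chitinase-like protein of monocytes, was at 198, 28.8 and 566 FPKM, and C1qb, a complement subunit of tissue macrophages, at 352, 393 and 4403 FPKM. None of the 20 markers was listed at 0 in any library, and their part in the Ly6i values was not tested.

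Ly6d had the widest range of the members. It was at 21.5 FPKM in the Gr-1+ CD11b+ cells, 1604 in the DC and 68.1 in the macrophages. In the DC it was the 41st highest of all symbols, whereas it ranked 2625 in the Gr-1+ CD11b+ cells and 1585 in the macrophages. About 31 fragments stood behind the Gr-1+ CD11b+ value, with a counting interval of 14.6 to 30.5 FPKM, and that value was 2.23 times the silent-gene level. The DC level was 74.6 times that of Gr-1+ CD11b+ cells and 23.5 times that of macrophages. The differences of -6.16 for Gr-1+ CD11b+ cells minus DC and 4.54 for DC minus macrophages passed the size rule under every scaling, with ranges of -6.52 to -5.40 and 4.34 to 4.92. Gr-1+ CD11b+ cells and macrophages differed by -1.62, which did not reach it.

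B cell markers and most plasma cell markers moved with Ly6d past the size rule, and fewer of the DC markers did. All 10 B cell markers were lower in the Gr-1+ CD11b+ cells than in the DC and higher in the DC than in the macrophages by the size rule, and they summed to 81.9, 3315 and 155 FPKM in the Gr-1+ CD11b+ cells, DC and macrophages. The 7 plasma cell markers summed to 627, 21231 and 1350 FPKM, with 6 past the rule in each of these comparisons. Cd79a, a subunit of the B cell receptor, was at 35.8, 1489 and 59.3 FPKM, and Jchain, which links secreted antibody units, at 352, 18847 and 982 FPKM. Within each library, Ly6d stood at 0.601 times Cd79a in the Gr-1+ CD11b+ cells, 1.08 times in the DC and 1.15 times in the macrophages, and at 26.3%, 48.4% and 43.9% of the summed B cell markers. Ly6d transcripts are also known from plasmacytoid dendritic cell progenitors. The 8 plasmacytoid markers summed to 56.0, 211 and 41.3 FPKM, and each was highest in the DC. By the size rule, 2 were lower in the Gr-1+ CD11b+ cells than in the DC. Between DC and macrophages 1 passed it, higher in the DC. This gene was Spib, a transcription factor that B cells use as well, at 2.30, 103 and 4.08 FPKM. Cox6a2 missed both calls only by the floor of 10 FPKM (-2.24 and 2.17), and Pacsin1 the first (-2.21). Of the 10 conventional DC markers, all but Xcr1 and Batf3 were highest in the DC. By the size rule, 6 of the 10 were lower in the Gr-1+ CD11b+ cells than in the DC. By the same rule, 3 of the 10 were higher in the DC than in the macrophages. Among them Ccr7, a chemokine receptor of migrating DC that lymphocytes also carry, was at 27.5, 1004 and 107 FPKM. The part of any of these cells in the Ly6d value was not tested.

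**Figure D3:**
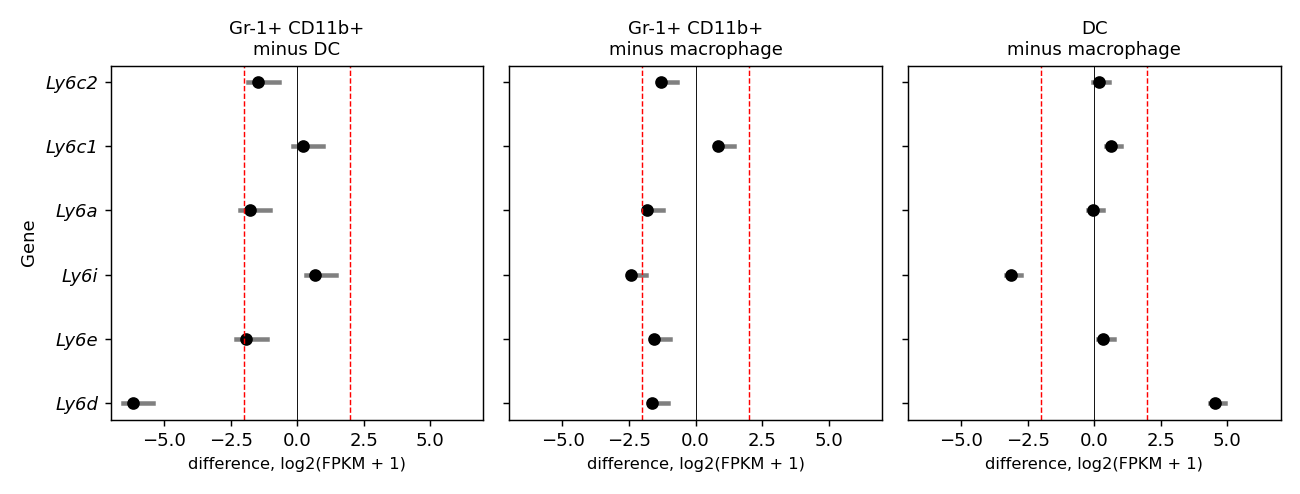
Differences of the 6 Ly6 genes on the log2(FPKM + 1) scale for Gr-1+ CD11b+ minus DC, Gr-1+ CD11b+ minus macrophage and DC minus macrophage; black points are the values as deposited, grey bars their range over the deposited and 3 other scalings, and dashed lines the size limits of -2 and 2. Ly6d lies beyond the limits in both comparisons with DC and Ly6i in the DC and macrophage comparison over the whole range.

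Counted together, 1 or 2 of the 6 members passed the size rule in each comparison. In Gr-1+ CD11b+ cells minus DC 1 of 6 did, Ly6d, where 9.93% of all genes tested did (3.65% higher and 6.28% lower in the Gr-1+ CD11b+ cells). In Gr-1+ CD11b+ cells minus macrophages 1 of 6 did, Ly6i, against 4.82% of all genes (1.41% higher and 3.41% lower). In DC minus macrophages 2 of 6 did, Ly6d upward and Ly6i downward, against 3.85% (1.53% higher and 2.31% lower in the DC). Counts of 1 or 2 among 6 are too few to set against these shares. The members' median differences were -1.62, -1.59 and 0.25 in the same order, against 0.01, 0.10 and -0.05 over all 17329 genes and the medians of expressed genes given above. These comparisons share libraries, and the split of all calls turned with the scaling. With median ratios, 1126 genes were higher and 353 lower in the Gr-1+ CD11b+ cells than in the DC, against 633 and 1088 as deposited.

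**Figure D4:**
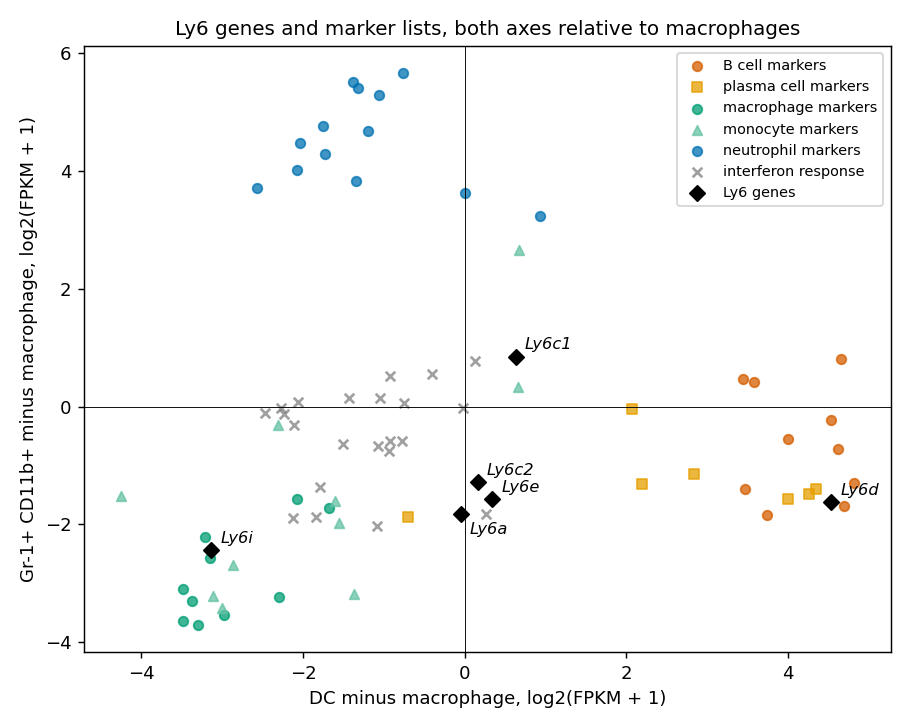
Differences from macrophages on the log2(FPKM + 1) scale, for DC on the horizontal and Gr-1+ CD11b+ cells on the vertical axis, of the 6 Ly6 genes (black diamonds) and of B cell, plasma cell, macrophage, monocyte, neutrophil and interferon response lists; both axes use the same macrophage library. Ly6d at 4.54 and -1.62 lies among the B cell and plasma cell markers. Ly6i at -3.13 and -2.44 lies among the macrophage and monocyte markers, and no Ly6 gene analysed lies among the neutrophil markers.

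The genes nearest to each member in level and pattern were found by Euclidean distance in log2(FPKM + 1) over the 3 libraries, among 15257 symbols. With 3 points per gene this describes these libraries only. The 5 nearest to Ly6d were Cd79a at a distance of 0.74, Mzb1 at 0.89, Ccr7 at 0.99, H2-DMb2 at 1.33 and Txndc5 at 1.40. The 5 nearest to Ly6i were Cfb at 0.42, a complement factor gene, the macrophage marker Adgre1 at 0.51, the adenosine receptor gene Adora2b at 0.53, and the chemokine genes Ccl12 at 0.55 and Ccl9 at 0.64. Abundant genes of many cell types were nearest to the other 3 high members, Rplp0 for Ly6a at 0.35, Atp5b for Ly6c2 at 0.19 and Rpl34-ps1 for Ly6e at 0.20, the ribosomal protein genes Rpl7 and Rps25 being among the 5 nearest of both Ly6a and Ly6c2. The second nearest to Ly6a was Psmb8 at 0.38, an interferon-inducible subunit of the immunoproteasome, at 264 FPKM in the Gr-1+ CD11b+ cells, 737 in the DC and 1033 in the macrophages. Nearest to Ly6c1 was Arid5a at 0.21, an RNA-binding protein gene.

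Ly6a and Ly6e are known targets of interferon, and a list of interferon response genes is given beside them. Of 22 interferon response genes, 4 were higher and 1 lower in the Gr-1+ CD11b+ cells than in the DC by the size rule, none passed it between Gr-1+ CD11b+ cells and macrophages, and 6 were lower in the DC than in the macrophages. Their median differences were 0.73, -0.22 and -1.08, where Ly6a had -1.78, -1.82 and -0.05 and Ly6e -1.91, -1.57 and 0.34. The gene lower in the Gr-1+ CD11b+ cells than in the DC was Bst2, which encodes the antiviral surface protein tetherin and is named after its values were seen. Bst2 was at 54.3 FPKM in the Gr-1+ CD11b+ cells, 236 in the DC and 196 in the macrophages, and its differences of -2.10, -1.83 and 0.27 lay close to those of Ly6a and Ly6e. Isg15, a ubiquitin-like protein, was at 337 FPKM in the Gr-1+ CD11b+ cells, 65.5 in the DC and 366 in the macrophages. Cxcl10, a chemokine for T cells, was at 1106, 258 and 1213 FPKM, and Ifitm3, a membrane protein that restricts viral entry, at 2912, 1592 and 4516 FPKM. Ly6i was lower in the DC than in the macrophages, as 6 of these genes were. It was also lower in the Gr-1+ CD11b+ cells than in the macrophages, a call lost with median ratios and equal 75th percentiles. None of the 22 passed the rule there, but the lowest, Mx1 at -2.03, missed only the floor of 10 FPKM. The part of interferon in the Ly6i values was not tested.

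Genes that build the GPI anchor, on which Ly6 proteins depend, were detected at modest levels. Of 28 such genes, 2 were lower in the Gr-1+ CD11b+ cells than in the DC by the size rule, Pigo and Dpm3, and 1 was lower than in the macrophages, Dpm1. None passed it between DC and macrophages. The median differences were -0.92, -0.80 and 0.25, beside -0.94, -0.81 and 0.17 for expressed genes in general. Dpm2, a subunit of the mannose donor synthase and the highest of these genes in the DC and macrophages but not in the Gr-1+ CD11b+ cells, was at 28.6 FPKM in the Gr-1+ CD11b+ cells, 77.7 in the DC and 81.8 in the macrophages. Pigs, a subunit of the transamidase that attaches the anchor, was at 28.9, 56.8 and 57.4 FPKM. In the Gr-1+ CD11b+ cells 8 of the 28 exceeded the silent-gene level of 9.65 FPKM, against all 28 in the DC and 22 in the macrophages, a count that follows that level.

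Other genes of the Ly6 and urokinase receptor family were mostly low, and Plaur, Lypd8 and Cd177 reached the highest levels in any library. Of 28 such genes, 3 exceeded the silent-gene level in the Gr-1+ CD11b+ cells, 10 in the DC and 3 in the macrophages. Cd177, a surface protein of neutrophils, was at 263 FPKM in the Gr-1+ CD11b+ cells, 4.36 in the DC and 21.8 in the macrophages. It was higher in the Gr-1+ CD11b+ cells than in the DC and macrophages by the size rule, with differences of 5.62 and 3.53, and was the only one of these 28 genes to do so against both. Plaur, the urokinase receptor gene, was at 1801, 361 and 1601 FPKM, and passed the rule upward for Gr-1+ CD11b+ cells minus DC (2.32) and downward for DC minus macrophages (-2.15). Lypd8, which colon epithelium secretes against flagellated bacteria, was at 265, 149 and 71.5 FPKM. Epithelial markers stood in the same order, 11 genes summing to 1510, 750 and 459 FPKM with none listed at 0, and their part in the Lypd8 values was not tested. Psca, a gene of epithelial surfaces, was at 0.614, 13.7 and 0 FPKM, and passed the rule towards DC.

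**Figure D5:**
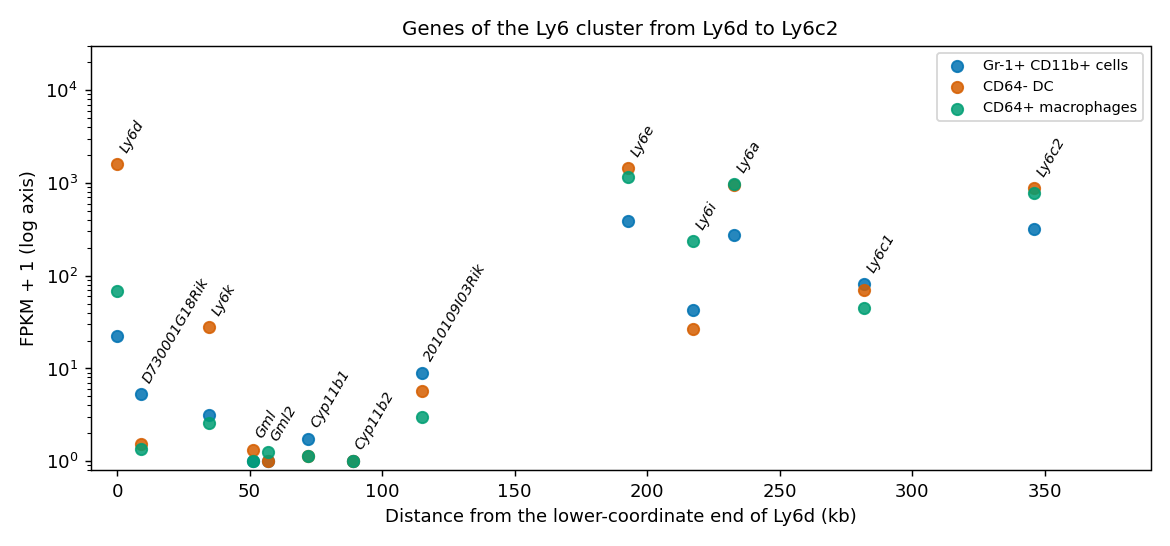
FPKM + 1 on a log axis of the 13 measured genes of the chromosome 15 cluster, against the distance in kb from the lower-coordinate end of Ly6d, with 1 point per library for Gr-1+ CD11b+ cells, DC and macrophages. The 7 other genes, between Ly6d and Ly6e, stay at or below 27.0 FPKM, a level that the members exceed except Ly6d in the Gr-1+ CD11b+ cells at 21.5 FPKM and Ly6i in the DC at 25.7 FPKM.

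The cluster from Ly6d to Ly6c2 spans 350 kb and holds 13 annotated protein-coding genes, all measured. The 7 genes between Ly6d and Ly6e were low. 2010109I03Rik, whose RefSeq symbol is Ly6m, was at 8.01 FPKM in the Gr-1+ CD11b+ cells, 4.67 in the DC and 2.002 in the macrophages, above the silent-gene level in the DC only. Ly6k, known from testis, was at 2.12 FPKM in the Gr-1+ CD11b+ cells, 27.0 in the DC and 1.56 in the macrophages, and passed the size rule with -3.17 for Gr-1+ CD11b+ cells minus DC and 3.45 for DC minus macrophages. Its lower-coordinate end lies 34.8 kb from that of Ly6d, the member with which Ly6k shares this direction. Gml, Gml2, Cyp11b1 and Cyp11b2, the last a gene of aldosterone synthesis, did not exceed 0.722 FPKM in any library. From Ly6e to Ly6c2, all 5 genes were members and all exceeded 25 FPKM in every library. Neighbours within this stretch differed in pattern: Ly6e, Ly6a and Ly6c2 were lowest in the Gr-1+ CD11b+ cells, Ly6i was highest in the macrophages, and Ly6c1 was lowest there.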

How the data were processed

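RNA of 3 sorted populations was measured, with 1 library each. The labels' protocols name the RNeasy kit for RNA extraction, SMART-Seq HT for cDNA and Nextera for the libraries. The authors deposited 1 table of FPKM per gene symbol and library. Per the submitters' processing notes the tools were Cufflinks 2.2.1, SAMtools 0.1.19, TopHat2 2.0.13 and Bowtie2 2.2.3 and the build mm10, without roles. The gene annotation, strandedness, pooling of mice and the handling of fragments that match several genes are not given in the sources used here.

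Because FPKM is relative to the library total, a few abundant transcripts lower all others. The 10 most abundant genes took 33.5% of summed FPKM in the Gr-1+ CD11b+ cells, 15.0% in the DC and 22.2% in the macrophages. Values were used as deposited, with a pseudocount of 1 before log2. For transcripts of 800 to 1200 nt, 1 fragment on 1 kb was worth 0.509, 0.141 and 0.187 FPKM in the Gr-1+ CD11b+ cells, DC and macrophages, and 81.4%, 81.9% and 81.5% of low values were within 0.2 of a whole number of steps (40% by chance). A value resting on 3 such fragments is 1.53, 0.422 and 0.562 FPKM. Fragment numbers used these steps and the first GENCODE M21 transcript of a gene. They are approximate, and without molecular identifiers the intervals cover counting error only. Coordinates, transcripts and coding sequences are from GENCODE M21 (GRCm38, the same assembly as mm10).

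The members and gene lists were chosen with earlier results of these data known. Genes were named by rule: the members, Fcgr1 and Itgam, the cluster's genes, the 5 nearest to each member (leaving out code symbols, immunoglobulin and T cell receptor segments), and from the family, GPI and interferon lists the 4 most abundant and the 4 with the largest difference at 10 FPKM or more, from each marker list the 2 most abundant. Not every gene that these rules allow is named. Bst2, Mx1, Cox6a2, Pacsin1, Xcr1, Batf3 and the endothelial markers other than Pecam1 and Plvap lie outside them. These were named after their values were seen. Of the lists, 10 T and NK cell markers summed to 60.0, 288 and 105 FPKM in the Gr-1+ CD11b+ cells, DC and macrophages. The code that applies the size rule was tested on simulated data, which is no test of the populations' differences. The alternatives were 2 pseudocounts, 2 floors, no filter on low values, 2 size limits, 3 scalings, subtraction of the silent-gene median and summing Ly6c1 with Ly6c2. Python 3.11.15, NumPy 2.4.6, pandas 2.3.3, SciPy 1.17.1, Biopython 1.88 and matplotlib 3.10.9 were used.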

Additional observations from a re-analysis of the deposited data

How the results depend on the processing

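Of the differences of single members under the alternatives, 180 stayed on their side of the size rule, 9 newly passed it and 3 no longer did. Part of the 180 could not change. Every member exceeded 30 FPKM in the higher library of each comparison, so the floors had no effect. Summing Ly6c1 with Ly6c2 left the other members as they were. All 3 lost calls were Ly6i in Gr-1+ CD11b+ cells minus macrophages (median ratios, equal 75th percentiles and a limit of 3). In Gr-1+ CD11b+ cells minus DC, 4 members passed with a limit of 1 and 3 with equal sums. In Gr-1+ CD11b+ cells minus macrophages, 5 passed with a limit of 1, and 0 with a limit of 3, median ratios or equal 75th percentiles.

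Over all genes the counts moved more. They are given as higher and lower for Gr-1+ CD11b+ minus DC, Gr-1+ CD11b+ minus macrophage and DC minus macrophage in turn, and were 633 and 1088, 244 and 591, and 266 and 401 as deposited. A pseudocount of 10 gave 293 and 309, 110 and 219, and 101 and 185. A limit of 1 gave 1045 and 3226, 818 and 2610, and 969 and 986, and a limit of 3 gave 359 and 240, 100 and 124, and 118 and 113. Without the floor of 10 FPKM, 1748 and 395 were higher in the Gr-1+ CD11b+ cells than in the DC and macrophages. With a floor of 30 FPKM these were 377 and 158, 666 were lower than in the DC, and 146 were higher in the DC than in the macrophages. Equal sums left 1814 lower in the Gr-1+ CD11b+ cells than in the DC, and 416 higher and 264 lower in the DC than in the macrophages. Median ratios gave 1126 and 353, and 618 and 251, for the Gr-1+ CD11b+ comparisons, and equal 75th percentiles 1141 and 370, and 647 and 244. With the silent-gene median subtracted, 1665 and 911 were lower in the Gr-1+ CD11b+ cells than in the DC and macrophages. Median ratios shifted the median of all genes by 0.62, 0.43 and -0.12 in the 3 comparisons, equal 75th percentiles by 0.61, 0.45 and -0.10, and equal sums by -0.28, 0.01 and 0.25. The cause of the remaining moves was not tested.

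No paired analysis was possible because each population has 1 library. Depth limits the Gr-1+ CD11b+ library most, where a value under 1.53 FPKM on a 1 kb transcript rests on fewer than 3 fragments.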
